A study of Rattus norvegicus with 6 samples.

Results

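The endoplasmic reticulum (ER) chaperones and ER-associated degradation genes were followed across 6 libraries of cultured rat muscle-derived stem cells. The genes were chosen by symbol: Hspa5, Hsp90b1, Pdia4, Creld2, Dnajb9, Dnajc3, Derl1, Derl2, Derl3 and Xbp1. Of these 10, 9 were matched to a probe set, each to 1, among 18166 named genes. No probe set named Derl2 alone, so its expression was not analysed here and only its promoter was searched. All 9 were among the 11540 genes that passed a filter on signal, which asked that the mean log2 value of a gene be no lower than 6.74, the median of every value on the arrays (an intensity of 107.2).

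The source was male rat skeletal muscle, from which the cells were obtained by a plating step, and their RNA was read on the Affymetrix Rat Gene 2.0 ST array. The fatty acid library is taken from its title, and the labels name sodium palmitate, a saturated fatty acid salt, without a dose of its own. The cholesterol library came from cells given 100 mg/dl cholesterol with cyclodextrin as carrier. The other libraries are titled OZ serum, LZ serum, high glucose control and low glucose control, with no serum amount, glucose level, exposure time, animal number or rat strain given in the labels, and no statement of which control belongs to which lipid or of whether a control held cyclodextrin. Each group is 1 array, and the labels do not say how many cultures or animals stand behind it. There was therefore no replicate error, no test was possible, and every difference below describes these libraries and not the conditions. In such bulk RNA, fewer cells of a type and less RNA per cell cannot be told apart.

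Secreted and membrane proteins fold inside the ER. When unfolded proteins build up there, the sensors IRE1 (gene Ern1), PERK (Eif2ak3) and ATF6 start the unfolded protein response: IRE1 splices the messenger of Xbp1 into its active form, ATF6 is cut to release a transcription factor, and PERK slows translation. ATF6 and XBP1 then raise the genes of chaperones and of ER-associated degradation, which moves misfolded proteins back to the cytosol for the proteasome. Saturated fatty acids such as palmitate are known to set off this response in many cell types.

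ATF6 acts with NF-Y at the ER stress response element (ERSE), so the promoters of the genes were searched for it before their levels are described. The windows are those of RefSeq on the rat build GRCr8, from 250 bases before to 50 bases after the annotated start, and 9 of the 10 genes had one. Derl1 had none. The ERSE (CCAAT, then 9 bases of any kind, then CCACG, on either strand) was found in 22 of all 33469 windows (0.0657%), among them 6 of the 9 windows of these genes. The genes were listed as target chaperones and derlins of ATF6 and XBP1, so a high share among them follows from that choice. The matches are given below in the direction of the motif, with its fixed letters in capitals and the spacer in lower case, to show how the 9-base spacer differs between genes.

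Hspa5: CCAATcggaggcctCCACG
Hsp90b1 upstream match: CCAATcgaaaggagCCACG
Hsp90b1 downstream match: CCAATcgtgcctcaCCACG
Creld2: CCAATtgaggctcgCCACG
Dnajc3: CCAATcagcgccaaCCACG
Derl3: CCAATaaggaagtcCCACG
Xbp1: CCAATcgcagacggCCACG

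The first Hsp90b1 match lay at -176 to -158 relative to the start and the second at -72 to -54, so this promoter held 2 matches on opposite strands. The match of Hspa5 was nearest to its start, at -43 to -25, and that of Xbp1 lay at -65 to -47. The matches of Dnajc3 (-133 to -115), Creld2 (-145 to -127) and Derl3 (-154 to -136) lay farther out. The windows of Dnajb9, Pdia4 and Derl2 held no ERSE in these letters. The core CCACG, which is part of the ERSE and so overlaps it, was in 8 of the 9 windows and in 31.6% of all windows. The ERSE-II (ATTGG, then 1 base of any kind, then CCACG), the XBP1-type element TGACGTGG and the amino acid response element TGATGCAAT, each on either strand, were in none of the 9, and in 0.0508%, 0.595% and 0.188% of all windows. Only these exact letters were searched. Sequences 1 base away from these letters were not counted and were not searched for as a set. The Hspa5 window holds TGACGTGA and the Dnajb9 window TGACGTAG, each 1 base from the XBP1-type element. The Dnajc3 window holds CCACGTTA, which is 1 base from that element read on the opposite strand. The Creld2 window holds ATTGGTCCACA, 1 base from the ERSE-II. These are examples, and further near matches may be present. On GRCr8 the matches are at chr3:38452973-38452991 (Hspa5), chr7:23012451-23012469 and chr7:23012347-23012365 (Hsp90b1), chr7:121789239-121789257 (Creld2), chr15:102432534-102432552 (Dnajc3), chr20:12766601-12766619 (Derl3) and chr14:84604558-84604576 (Xbp1). A match in these letters is a description of the sequence and not evidence of binding.

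The windows of the 3 genes with the largest differences in the fatty acid library are shown whole, because they differ in what they hold. Capitals mark the fixed letters of the ERSE in Derl3 and Creld2, where it is read on the opposite strand, and the only CCACG core in Dnajb9. Derl3 is given as chr20:12766416-12766715, minus strand, Creld2 as chr7:121789134-121789433, plus strand, and Dnajb9 as chr6:67002002-67002301, minus strand, each from 5′ to 3′ of the gene.

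Derl3: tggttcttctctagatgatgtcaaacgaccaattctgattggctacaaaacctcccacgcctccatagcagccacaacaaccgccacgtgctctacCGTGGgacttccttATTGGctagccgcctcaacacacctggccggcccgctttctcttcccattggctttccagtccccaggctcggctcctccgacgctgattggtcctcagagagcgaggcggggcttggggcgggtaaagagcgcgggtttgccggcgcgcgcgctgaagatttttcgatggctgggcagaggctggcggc
Creld2: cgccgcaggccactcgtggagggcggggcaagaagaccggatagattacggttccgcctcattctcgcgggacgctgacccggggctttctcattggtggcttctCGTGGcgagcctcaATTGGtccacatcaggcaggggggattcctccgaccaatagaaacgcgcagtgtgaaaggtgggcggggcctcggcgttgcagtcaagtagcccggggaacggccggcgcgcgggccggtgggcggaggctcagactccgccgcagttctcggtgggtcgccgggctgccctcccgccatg
Dnajb9: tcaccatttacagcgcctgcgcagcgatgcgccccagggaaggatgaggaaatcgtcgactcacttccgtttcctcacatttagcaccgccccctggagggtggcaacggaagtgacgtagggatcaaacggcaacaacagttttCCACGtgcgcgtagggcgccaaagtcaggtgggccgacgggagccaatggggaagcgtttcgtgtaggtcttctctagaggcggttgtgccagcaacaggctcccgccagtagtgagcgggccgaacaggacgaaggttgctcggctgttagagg

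**Figure D1:**
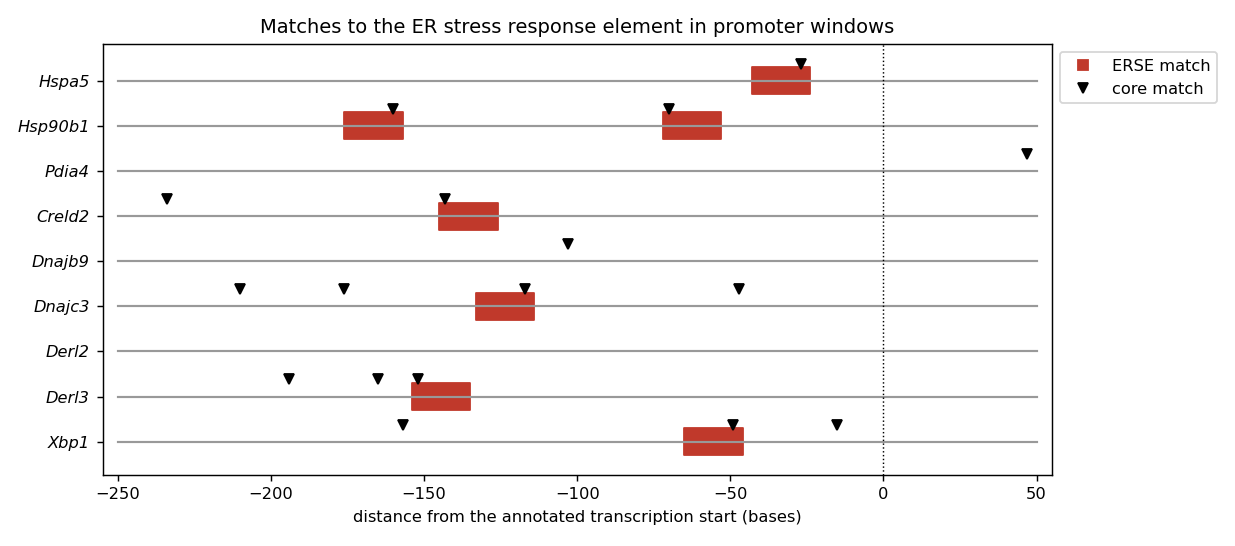
Positions of ERSE matches (red bars) and CCACG core matches (triangles) in 9 promoter windows, by distance in bases from the annotated transcription start (dotted line). 6 windows hold an ERSE and Hsp90b1 holds 2, while Dnajb9 and Pdia4 hold 1 core match each outside any ERSE and Derl2 holds neither.

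The fatty acid and cholesterol arrays stood apart in probe sets that do not measure the cells. Affymetrix arrays carry hybridization controls (bioB, bioC, bioD and cre), labelled transcripts that are by convention added to each hybridization in fixed amounts. All 18 such probe sets were highest in the fatty acid library, and 15 of them were lowest with cholesterol. Their median log2 difference was 0.50 for fatty acid minus the high and 0.72 for fatty acid minus the low glucose control, and -0.35 and -0.11 for cholesterol minus these controls. Cholesterol minus fatty acid had a median of -0.83 in them. The 23 background probe sets had a median log2 signal of 5.43 with fatty acid and 4.98 with cholesterol, against 5.23 and 5.22 in the high and low glucose controls. The values of the genes below are as deposited, and the same values set against these probe sets follow them.

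All 9 genes were higher in the fatty acid library than in both controls, and 3 of them, Derl3, Creld2 and Dnajb9, were at least 2-fold higher. The differences ran from 0.07 for Xbp1 to 2.86 for Derl3 on the log2 scale, with a median of 0.65, where each value is the smaller of the differences from the high and the low glucose control. Of all genes that passed the filter, 40.4% were higher than both controls, 2.92% by 1.5-fold or more and 0.641% by 2-fold or more, while 39.7% were lower, 6.13% by 1.5-fold or more and 2.01% by 2-fold or more. Among the 9 genes, 5 passed 1.5-fold upward and none was lower. The median over all genes was 0.00. The fatty acid library was the highest of the 6 for all 9 genes, as it was for 30.0% of all genes. In 7 of the 9, it stood above the next library by more than the whole range of the other 5, a pattern found in 8.86% of all genes.

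**Figure D2:**
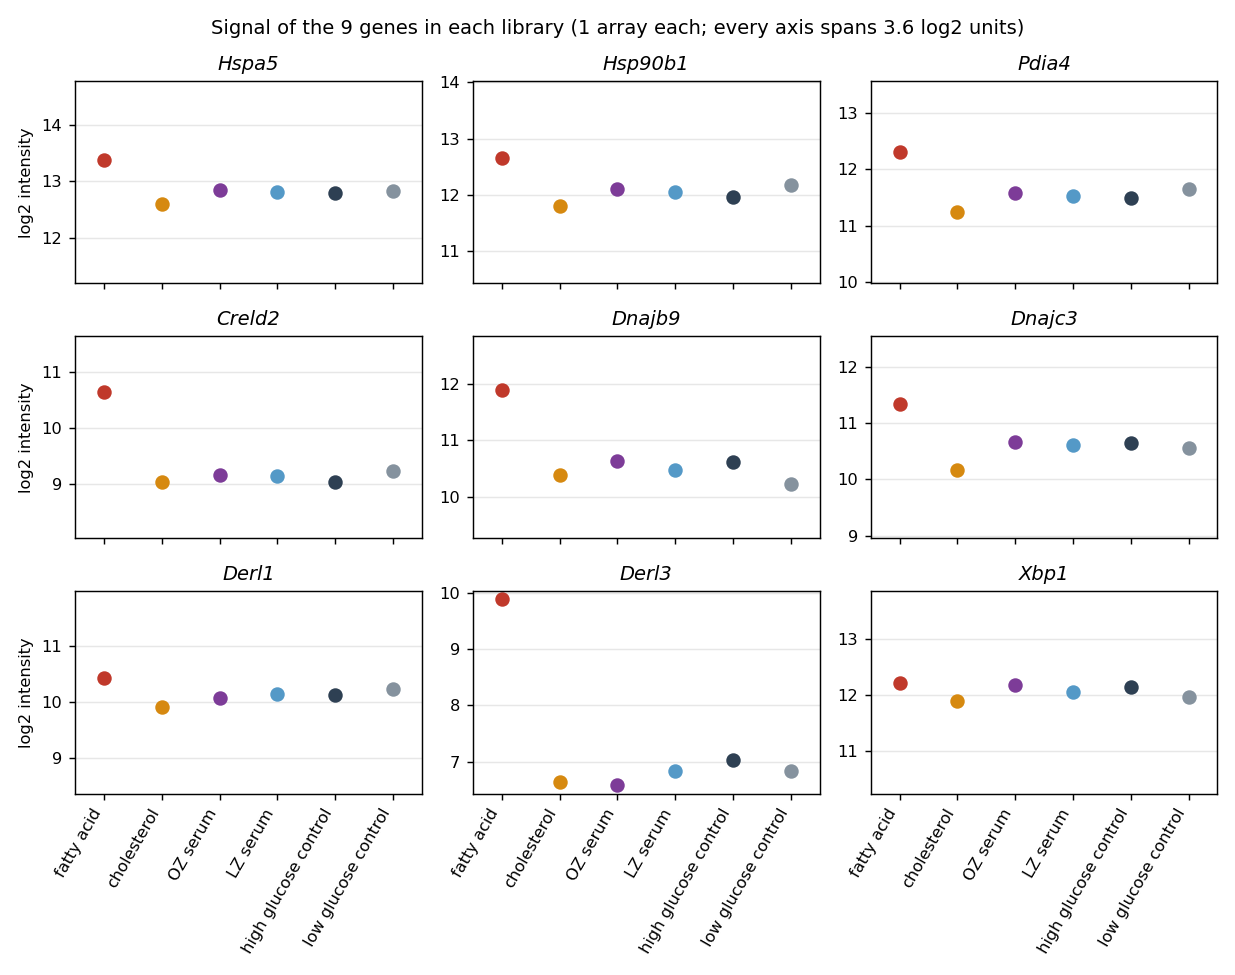
Log2 intensity of each of the 9 genes (1 panel each) in the 6 libraries, 1 point per array, on axes of equal span. The fatty acid point is the highest in every panel, by 2.86 in Derl3 and by 0.02 in Xbp1.

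Hspa5, Hsp90b1 and Pdia4, lumenal chaperones of the set, were higher with fatty acid by less than 2-fold. Hspa5 (probe set 17761597) encodes BiP, the ER chaperone of the Hsp70 family that also holds the sensors inactive. Its intensity was 10608 in the fatty acid library and 6202 in the cholesterol library, 7361 with OZ serum and 7235 with LZ serum, against 7079 in the high and 7318 in the low glucose control. The fatty acid library stood alone above the rest, by 0.54 in log2 over the nearer control (1.45-fold), and the cholesterol library was the lowest. Hsp90b1 (probe set 17834768), or GRP94, is the ER member of the Hsp90 family. It had 6428 with fatty acid, 3557 with cholesterol, 4424 with OZ serum and 4260 with LZ serum, against 3981 and 4619 in the high and low glucose controls, a log2 difference of 0.48 for fatty acid. Pdia4 (ERp72, probe set 17791157), a protein disulfide isomerase that forms and rearranges disulfide bonds, had 5045 with fatty acid, 2420 with cholesterol, 3059 with OZ serum and 2934 with LZ serum, against 2885 and 3205 in the controls. Its log2 difference was 0.65. The order was the same in these 3 genes: fatty acid highest, cholesterol lowest and both serum libraries between or close to the controls. Hspa5 and Pdia4 had the closest profiles of any pair of the 9, with a Pearson correlation of 0.995 over the 6 libraries, and Creld2 and Xbp1 the least alike, with 0.522. These points share the fatty acid library, which lies apart in 7 of the 9 genes.

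Creld2 (probe set 17831510), an ER-resident protein with disulfide isomerase activity, had a larger fatty acid difference than these 3. It had 1590 in the fatty acid library, 522 with cholesterol, 571 with OZ serum and 566 with LZ serum, against 524 and 602 in the high and low glucose controls. The fatty acid library was 2.64-fold above the nearer control, while the other 5 libraries lay within 0.21 of each other in log2, the narrowest such range of the 9 genes.

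The co-chaperones gave the next differences. Dnajb9 (ERdj4, probe set 17821714) carries a J domain that drives BiP, helps to hand misfolded proteins to degradation and restrains IRE1. Its intensity was 3793 with fatty acid and 1343 with cholesterol, 1594 with OZ serum and 1415 with LZ serum, against 1577 in the high and 1196 in the low glucose control. It was 2.41-fold higher with fatty acid than in the nearer control, and it had the largest difference between the controls of the 9 genes, 0.40 in log2 for high minus low glucose. Dnajc3 (p58IPK, probe set 17700688), a co-chaperone of BiP that was first known as an inhibitor of the kinase PKR, had 2585 with fatty acid, 1147 with cholesterol, 1615 with OZ serum and 1566 with LZ serum, against 1595 and 1504 in the controls. Its difference was 0.70 with fatty acid, and with cholesterol it was the lowest of the 9 genes relative to the controls, at -0.39.

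The derlins are membrane proteins of the channel through which misfolded proteins leave the ER, and the 2 measured here differed in size. Derl3 (probe set 17757820) had 944 in the fatty acid library, 99.4 with cholesterol, 95.7 with OZ serum and 114 with LZ serum, against 130 and 115 in the high and low glucose controls. It was 7.28-fold higher with fatty acid than in the nearer control. In the other 5 libraries its signal lay around the median of all values (107.2), where background takes a larger part of a signal, so the size of this fold is less certain. With an offset of 32 added before log2 the difference was 2.59 instead of 2.86. Derl1 (probe set 17837429) had 1379 with fatty acid, 964 with cholesterol, 1080 with OZ serum and 1122 with LZ serum, against 1109 and 1205 in the controls. Its difference, 0.19, was below 1.5-fold.

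Derl3 is known from secretory cells such as plasma cells, so markers of plasma and B cells were read beside it. Of 11 listed, 10 were annotated and 7 of them passed the filter on signal. With fatty acid 3 of the 7 were higher than both controls (Irf4 0.17, Cd79b 0.12 and Pou2af1 0.01) and 2 lower (Sdc1 -0.74 and Prdm1 -0.19). The other 3, Ms4a1, Jchain and Tnfrsf17, lay below the median of all values in every library. The summed intensity of the list was 3174 with fatty acid, against 4543 and 5003 in the high and low glucose controls, and Sdc1, which other cell types also express, made up most of it. Without Sdc1 the sums were 1196 with fatty acid and 901 with cholesterol, against 1249 and 1213 in the controls. The part of these markers in the Derl3 difference was not tested.

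Xbp1 (probe set 17691286), the transcription factor downstream of IRE1, varied least. It had 4714 with fatty acid, 3780 with cholesterol, 4638 with OZ serum and 4253 with LZ serum, against 4479 and 3969 in the high and low glucose controls. The fatty acid and OZ serum libraries differed by 0.02 in log2, and all 6 libraries lay within 0.32. The probe set gives 1 value for the gene and does not separate the spliced from the unspliced messenger.

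**Figure D3:**
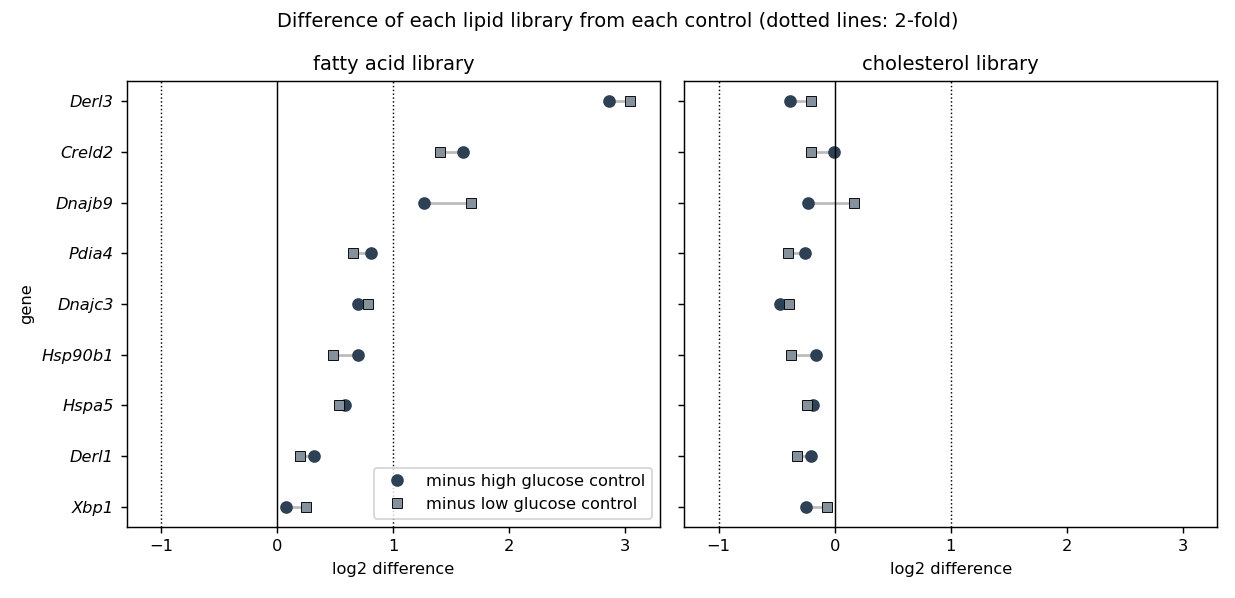
Log2 difference of the fatty acid library (left) and the cholesterol library (right) from the high glucose control (circles) and the low glucose control (squares) for each of the 9 genes, with dotted lines at 2-fold. All points lie right of 0 with fatty acid, where Derl3, Creld2 and Dnajb9 pass 2-fold against both controls, and no gene reaches 1.5-fold with cholesterol.

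In the cholesterol library the genes stood slightly below the controls. Of the 9, 8 were lower than both controls, with a median of -0.19, and none was 1.5-fold lower. Among all genes, 33.6% were lower than both controls, 2.04% by 1.5-fold or more and 0.806% by 2-fold or more. A further 36.3% were higher, 1.36% by 1.5-fold or more and 0.381% by 2-fold or more, and the median was 0.00. Creld2 counts among the 8 with a difference of -0.004 from the high glucose control, so the 2 values were nearly equal. Dnajb9 was the exception, lying between the controls. The cholesterol library was the lowest of the 6 for 7 of the 9 genes, as for 17.5% of all genes, and the exceptions were Dnajb9, lowest in the low glucose control, and Derl3, lowest with OZ serum.

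Set directly against the fatty acid library, the cholesterol library was lower in all 9 genes, and 5 were at least 2-fold lower (Derl3 -3.25, Creld2 -1.61, Dnajb9 -1.50, Dnajc3 -1.17 and Pdia4 -1.06). Of all genes, 48.0% were lower in this comparison and 0.901% at least 2-fold lower. The median was -1.06 over the 9 genes and 0.01 over all, beside the -0.83 of the hybridization controls. The 18 control probe sets ran from -1.22 to -0.29 in this comparison. Derl3, Creld2 and Dnajb9 lay below that range, while Dnajc3, Pdia4 and the remaining genes lay inside it. The lipids were given in forms and amounts that cannot be matched from the labels.

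The serum libraries and the controls differed little in these genes. No gene of the 9 was 1.5-fold apart between OZ and LZ serum, where 0.113% of all genes were higher and 0.147% lower by that factor. The largest differences between the serum libraries were -0.25 in Derl3 and 0.17 in Dnajb9. Between the high and low glucose controls, differences ran from -0.21 in Hsp90b1 to 0.40 in Dnajb9, none of them at 1.5-fold, against 1.59% of all genes higher and 1.11% lower by that factor. With both serum libraries set against both controls, 8 of the 9 genes did not stand on one side of both controls, and Derl3 was at -0.01. Among all genes in that comparison 8.83% were higher and 19.7% lower than both controls.

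Taking for each of the 18 hybridization control probe sets the smaller difference of the fatty acid library from the controls, the values ran from 0.17 to 0.71, none at 2-fold. Derl3, Creld2 and Dnajb9 lay above that range. Dnajc3, Pdia4, Hspa5, Hsp90b1 and Derl1 lay inside it and Xbp1 below it.

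Scaling every array to the median of its hybridization controls, an alternative added after seeing the data, moved the median of all genes to -0.54 for fatty acid against both controls. On that scale Derl3 was at 2.22, Dnajb9 at 0.71 and Creld2 at 0.58, Hspa5, Hsp90b1, Pdia4 and Dnajc3 lay between the controls, and Derl1 and Xbp1 were at -0.24 and -0.48. Such a scaling shifts every gene of an array alike, so it leaves the standing of the genes among all genes unchanged against any 1 library. The shift depends on how the control probe sets are summarised: for cholesterol minus fatty acid the array medians differed by -1.06, while the median of the probe sets' own differences was -0.83. Scaled by probe sets that were first centred over the arrays, Derl3 was at 2.33, Dnajb9 at 0.78, Creld2 at 0.69, Dnajc3 at 0.07, Derl1 at -0.17 and Xbp1 at -0.41, and Hspa5, Hsp90b1 and Pdia4 lay between the controls. Cyclic loess, which removes trends with signal strength, gave 2.83 for Derl3, 1.41 for Creld2, 1.29 for Dnajb9 and 0.60 for Hspa5. Of the 3100 genes with a mean log2 signal of 10 or more, 36.5% were higher with fatty acid than in both controls and 2.74% by 1.5-fold or more, near the shares over all genes. What share of the smaller differences goes with the hybridization of these arrays was not tested.

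**Figure D4:**
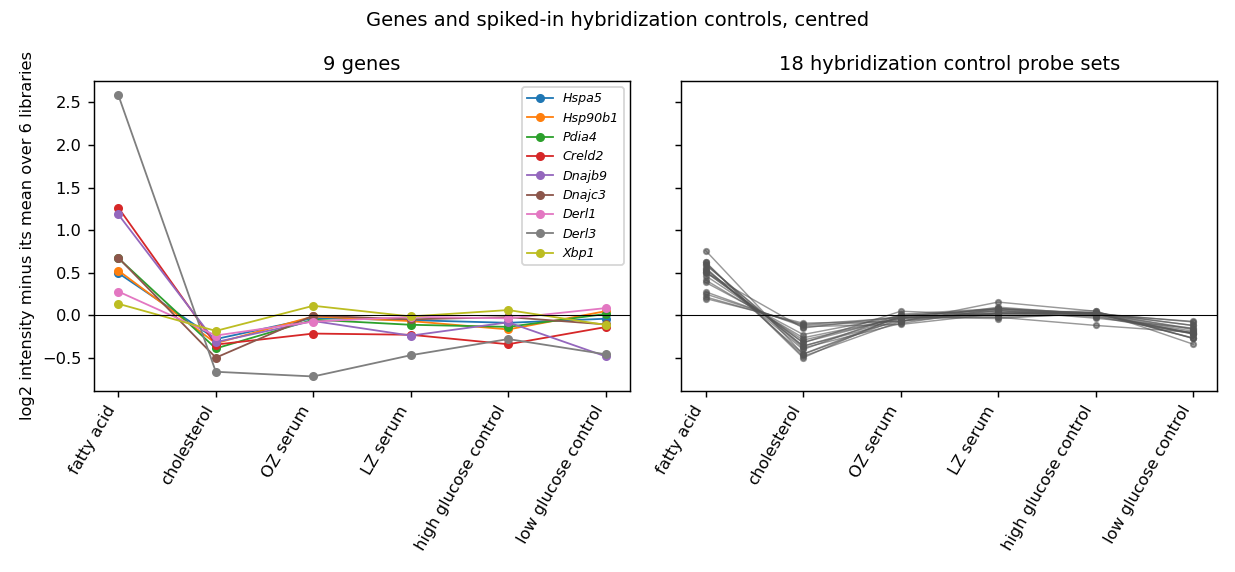
Log2 intensity minus the mean over the 6 libraries, for the 9 genes (left) and for 18 hybridization control probe sets (right, 1 line each). Both sets are highest in the fatty acid library, and the lines of Derl3, Creld2 and Dnajb9 lie above all control lines there.

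The wider ER gene lists did not share the whole pattern. Their values are as deposited. The hybridization control range with fatty acid (0.17 to 0.71) applies to them too. Herpud1, Ddit3 and Sec11c, named below at 1.5-fold, lie inside that range. For cholesterol minus fatty acid the control range was -1.22 to -0.29. Of the genes named below as 2-fold lower in that comparison, Ero1b lies inside it and Sec11c below it. For comparison with the counts, 40.4% of all genes were higher and 39.7% lower with fatty acid, and 36.3% and 33.6% with cholesterol. Of 24 further ER folding genes, all of which passed the filter, 12 were higher and 9 lower than both controls with fatty acid, with a median of 0.02, and none was 1.5-fold apart in either direction. Nearest to it, named after their values were seen, were Ero1b, an oxidase that recharges disulfide isomerases (0.57), Hyou1, a large ER Hsp70-type chaperone (0.53), and Cnpy2 on the lower side (-0.58). The lectin chaperones Calr (0.11) and Canx (0.09), and P4hb (0.00), the most common protein disulfide isomerase, stood near the controls and were likewise chosen after their values were seen. With cholesterol, 15 of the 24 were lower and 4 higher than both controls (Cnpy3, Fkbp2, Ero1a and Pdia5, at 0.20, 0.19, 0.16 and 0.03), with a median of -0.09, and compared with fatty acid Ero1b was 2-fold lower (-1.01).

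Among 27 measured genes of ER-associated degradation besides the derlins, 15 were higher and 3 lower with fatty acid, with a median of 0.07. Herpud1, a membrane protein of the degradation complex, was the only one at 1.5-fold (0.60), at an intensity of 2816 with fatty acid and 1425 with cholesterol, against 1852 and 1694 in the high and low glucose controls. The lower genes were Ngly1 (-0.49), Rnf5 (-0.20) and Os9 (-0.19). Syvn1 (0.07), the ubiquitin ligase of the channel, and its partner Sel1l (0.00) are named after their values were seen. With cholesterol 13 were lower and 7 higher, none at 1.5-fold.

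Of the sensors, Ern1 was 2-fold higher with fatty acid. It had an intensity of 1473 with fatty acid, 718 with cholesterol, 539 with OZ serum and 595 with LZ serum, against 568 and 667 in the high and low glucose controls, a log2 difference of 1.14. The fatty acid library stood alone. Scaling to array medians of the hybridization controls lowers fatty acid differences by 0.56 against the high and 0.82 against the low glucose control. On that scale Ern1 would lie below 1.5-fold. Atf6 (-0.13) and Eif2ak3 (0.19), named as the remaining sensors, were below 1.5-fold. In the list of 14 sensors and transcription factors besides Xbp1, 5 were higher (Ern1, Ddit3, Nfya, Eif2ak3 and Mbtps2) and 7 lower than both controls, with a median of -0.03. Ddit3, or CHOP, the factor of the late PERK response, was at 0.70 and Creb3l1, an ER-anchored factor that drives collagen genes, at -0.91, and no further gene of the list reached 1.5-fold with fatty acid. With cholesterol 3 of the 14 were higher (Nfya 0.13, Ern1 0.11 and Creb3 0.05) and 5 lower, and Nfyb, a subunit of NF-Y, was the only one at 1.5-fold (-0.67).

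Of 11 measured output genes of the PERK branch, 8 were higher and 3 lower with fatty acid, with a median of 0.07. Atf3, a stress-induced repressor (2.13), and Ppp1r15a, or GADD34, which restores translation (1.10), were at least 2-fold higher, while the lower genes were Nupr1 (-0.74), Asns (-0.57) and Trib3 (-0.25). With cholesterol the list split otherwise: 6 were lower and 3 higher (Atf3, Ero1a and Cebpb). Atf3 was 2-fold higher (1.35), Trib3, a pseudokinase, was 2-fold lower (-1.11), and Chac1 (-0.81) and Asns (-0.78) were 1.5-fold lower. Several of these genes are also targets of other stress pathways. Scaled to the array medians of the hybridization controls, Ppp1r15a would lie below 1.5-fold with fatty acid, while Atf3 would stay above 2-fold.

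Genes of ER import and N-glycosylation had a median of 0.03 with fatty acid, with 14 of 27 higher and 7 lower. Sec11c, a subunit of the signal peptidase, was at 0.60 and Sec61g at -0.59, the only 2 of the list at 1.5-fold, and compared with fatty acid Sec11c was 2-fold lower with cholesterol (-1.35). Of 19 ER to Golgi transport genes, 7 were higher and 10 lower with fatty acid, Sec23a at -0.68 being the only one at 1.5-fold. With cholesterol 16 of these 19 were lower than both controls, by less than 1.5-fold, and none was higher, beside 33.6% of all genes lower. Their median was -0.07. Of the 18 hybridization control probe sets, 15 were also lower than both controls with cholesterol, and the median of the 18 was -0.11. In the heat shock list 10 of 13 genes were higher with fatty acid, beside 40.4% of all genes, and the lower one was Hsph1 (-0.001). The median of the list was 0.15, below the lowest hybridization control difference (0.17), and none was at 1.5-fold. That list holds 2 mitochondrial chaperonins, Hspd1 (0.56) and Hspe1 (0.01), and without them 8 of 11 were higher. Of 10 mitochondrial chaperones and proteases 5 were higher (Afg3l2, Clpp, Dnaja3, Clpx and Yme1l1) and 2 lower (Htra2 and Trap1), with a median of 0.01, and with the chaperonins added 7 of 12 were higher.

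**Figure D5:**
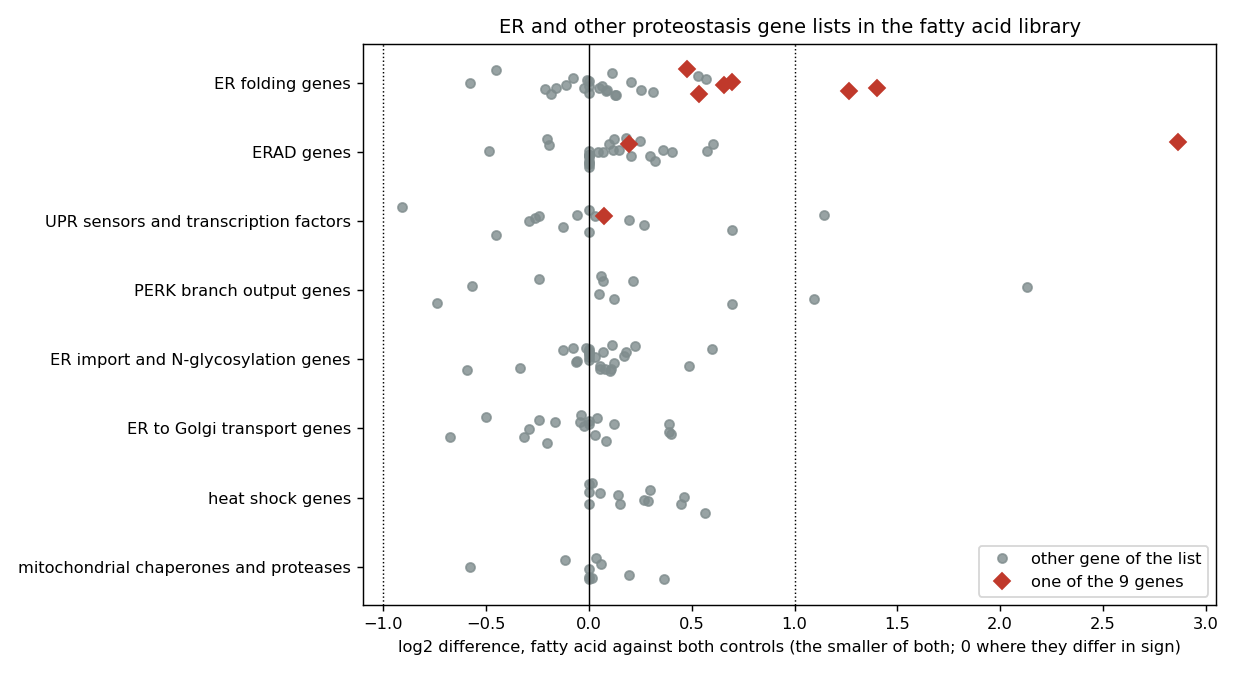
Log2 difference of the fatty acid library from both controls (the smaller of both, 0 where they differ in sign) for each measured gene of 8 lists, with the 9 genes as red diamonds and dotted lines at 2-fold. In the ER folding list 4 of 6 diamonds and none of the 24 grey points are at least 1.5-fold higher, beside 2.92% of all genes. The diamond of Hspa5 (0.54) and the grey points of Ero1b (0.57) and Hyou1 (0.53) lie just below that. Derl3 lies alone at 2.86 among the ERAD genes. Ddit3 and Ero1a each appear in 2 lists.

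The ERSE in a promoter did not go with a common level of difference. The 6 genes of the set with a match had a median of 0.62 with fatty acid, from 0.07 in Xbp1 to 2.86 in Derl3, and those without one were Dnajb9 at 1.27 and Pdia4 at 0.65. Of 15 further symbols with a match, 9 passed the filter on signal, of which 5 were higher and 2 lower than both controls, with a median of 0.09. The higher genes were Zfand2a, Ero1b (0.57), Zfp57 (0.14), Calr (0.11) and Canx (0.09). Zfand2a, which encodes a zinc finger protein that works with the proteasome, was the only one of them at 2-fold (1.61). Those lower were Pan2 (-0.63) and Ppm1l (-0.26).

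The genes with profiles most like the mean of the 9 were sought among 851 other genes that passed the filter and spanned at least 2-fold over the 6 libraries. The likeness was Pearson's correlation over the 6 libraries, and 20 genes reached 0.95. The 8 closest were Slc1a1 (0.99), Ficd (0.99), Gclm (0.98), Slc16a6 (0.98), Psx1 (0.98), Utp3 (0.97), Adamtsl1 (0.97) and Slc16a1 (0.97). Slc16a6 was 2.58-fold and Slc1a1 2.24-fold higher with fatty acid than in the nearer control, and the others were below 2-fold. With 6 points of which 1 stands apart, such correlations are easily high.

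Markers of cell types also differed between the libraries. Of 11 annotated mesenchymal progenitor markers all passed the filter, and their summed intensity was 48985 with fatty acid and 56062 with cholesterol, against 64317 and 62431 in the high and low glucose controls. Without Vim, the gene of highest signal, the sums were 35160 and 42577, against 50548 and 48526. With fatty acid 8 of the 11 were lower than both controls and 1 higher, with a median of -0.54, and 5 were 1.5-fold lower. Among all genes, 39.7% were lower, 6.13% by 1.5-fold or more. With cholesterol 8 of the 11 were lower and 1 higher, with a median of -0.19, beside 33.6% of all genes lower. Of 9 annotated myogenic markers 4 passed the filter. With fatty acid Pax7 (0.22) and Des (0.18) were higher than both controls, and Pax3 (-0.62) and Ncam1 (-0.90) lower. Those that did not pass were Myf5, Myod1, Myog, Chrna1 and Cdh15. The myogenic sum was 3589 with fatty acid and 5481 with cholesterol, against 5861 and 6473 in the high and low glucose controls, and without Ncam1 it was 952 and 929, against 943 and 954. Of 10 leukocyte and macrophage markers 3 passed. With fatty acid Cd68 (0.40) and Tyrobp (0.06) were higher and Cd14 (-0.60) was lower, and with cholesterol these 3 were higher (1.56, 0.10 and 0.51 for Cd68, Tyrobp and Cd14). The leukocyte sum was 948 with fatty acid and 1942 with cholesterol, against 1338 and 1081, and without Cd14 it was 607 and 821, against 552 and 564. Summed endothelial markers (1 of 6 passing) were 517 with fatty acid and 494 with cholesterol, against 934 and 641, and without Erg 344 and 322, against 322 and 345. Summed adipocyte markers (3 of 6 passing) were 596 and 486, against 521 and 483, and keratinocyte markers (1 of 5 passing) 438 and 413, against 415 and 398, in the same order of libraries. The part of these shifts in the chaperone and derlin differences was not tested. Over the 36685 probe sets the median intensity ran from 104.6 to 109.2 across the arrays, and the number of arrays limits the precision.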

How the data were processed

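Expression was measured on 6 Affymetrix Rat Gene 2.0 ST arrays, 1 for each group as titled in the labels. The deposited values are intensity values on a linear scale for 36685 probe sets, which the authors made by a method not given in the sources used here. Median intensities of the arrays differed little (104.6 to 109.2), so a difference in total RNA between cultures would not be seen if the arrays were scaled to each other. Values were put on the log2 scale as they stand. The annotation of the platform names 1 gene for 18511 probe sets and several for 575. Only those with 1 gene were used, and a gene with several probe sets took the one with the highest mean. Against 2 controls, a value is the smallest log2 difference if their signs match, or else 0, counted at 2-fold or 1.5-fold.

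The genes, lists, motifs and rules were chosen with earlier results of these data known. Genes named are the 9 genes, list genes at 2-fold or behind a count of 5 or fewer, and the 8 most alike in profile; others are marked where they appear. Alternatives were quantile normalization, median centring, cyclic loess, the signal filter, averaged probe sets, an offset of 32, a 1.5-fold threshold, single or averaged references and, added after seeing the data, a stricter filter on the mean signal and scaling to hybridization controls in 2 ways. With 1 array per group, an alternative was read as unchanged within 0.14 log2, the median absolute difference between the controls over all genes, which also holds any effect of glucose. Analyses used Python 3.11.15, numpy 2.4.6, pandas 2.3.3, matplotlib 3.10.9, limma 3.58.1 and R 4.3.3.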

Additional observations from a re-analysis of the deposited data

How the results depend on the processing

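Among the 9 genes, the counts at 2-fold and the median differences kept their size within 1.5 times or within 0.14 log2 in all 6 comparisons. This held under quantile normalization, median centring, cyclic loess, an offset of 32 and single or averaged references. Averaged probe sets and the planned signal filters could not change them, since each gene has 1 probe set and Derl3 passed the stricter filter through its fatty acid value alone. A stricter filter on the mean, added after seeing the data, drops Derl3 and leaves 2 genes at least 2-fold higher with fatty acid, with a median of 0.60, and 4 at least 2-fold lower in cholesterol against fatty acid. Of all 6486 genes that pass that filter, 40 and 65 were so in these comparisons. With fatty acid 5 genes instead of 3 were counted at a 1.5-fold threshold, by its construction. Scaling to the array medians of the hybridization controls left 1 gene at least 2-fold higher with fatty acid and a median of 0, and a median of 0 with cholesterol, each against both controls. In cholesterol against fatty acid it left 1 gene at least 2-fold lower and a median of -0.0019. The median became 0.20 for OZ against LZ serum and -0.31 for high against low glucose. With centred control probe sets, the same counts were 1 and 1, the same 3 medians 0, 0 and -0.23, and that for high against low glucose -0.27. Over all 11540 genes, the same counts were 18 and 14 with the array medians and 21 and 18 with centred probe sets. The array medians moved the median of all genes to -0.54, 0.23, 1.07, 0.13 and -0.27 in these 5 comparisons, and centred probe sets to -0.47, 0.11, 0.84, 0.05 and -0.23. The shift is the same for every gene of an array, so these changes follow from its construction. No gene's call at 2-fold changed under an alternative other than these scalings, the 1.5-fold threshold and the loss of Derl3 to the filter on the mean. No paired analysis was possible because each group holds 1 array.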
